A study of Mus musculus with 35 samples.

Results

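The Hox genes of the mouse stand in 4 clusters, a to d, and each gene carries a paralog number from 1 to 13. They were followed here across sorted epithelial cells of tail skin, back skin, tongue and palate. Every row named Hox, a cluster letter and a number was taken, with no antisense or opposite-strand name. That gave 39 of the 49585 genes listed for tail, tongue and palate. It gave 38 of the 53715 genes listed for back skin, where Hoxd4 appears as Hoxd4_1 and Hoxd4_2, and 38 of the 47436 names that both sets share.

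All 35 libraries came from C57BL/6J mice of 2 months with the genotype K5-tTA/pTRE H2B-GFP that had received doxycycline. In these mice the keratin 5 promoter drives the transactivator tTA, which switches on a histone H2B fused to green fluorescent protein. Doxycycline stops this synthesis, so that cells that divide seldom keep the label (label-retaining cells, LRC, named slow-cycling by the submitters) and cells that divide often lose it (nLRC, named fast-cycling). Skin groups had 2 weeks of doxycycline and tongue and palate groups 10 days, and no undosed or non-transgenic sample enters. In tail skin the groups were bulge, basal layer LRC and basal layer nLRC. In back skin they were bulge, basal layer LRC and nLRC, spinous layer LRC and nLRC, and granular layer, with 3 libraries in each skin group. Tongue and palate each gave basal layer LRC and nLRC with 2 libraries per group. The bulge, the niche of hair follicle stem cells, lies in the follicle, and the basal, spinous and granular layers follow each other outwards in the epidermis. Nothing in the labels ties replicates to separate animals. All p-values therefore refer to the spread among these libraries alone, and that spread may be technical.

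Hox genes encode homeodomain transcription factors. Their order along a cluster matches the order of their expression from head to tail in the embryo, with low paralog numbers anterior and high ones posterior, and adult skin cells keep part of this code. Genes with the same number in different clusters are paralogs that arose from one ancestral cluster. Hoxc13 has a separate role in the mouse, where its loss leaves animals without a normal hair coat and with defective nails and tongue papillae.

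Each library held 8421582 to 14093720 gene reads in tail skin, 9785944 to 20560481 in back skin, 11847897 to 13034075 in tongue and 11680595 to 15641556 in palate. Levels are given as the deposited TPM, a transcript abundance relative to the library total, which is scaled by gene length and rests on exon reads. Tests used total gene reads, which also hold intron reads. The back skin tables and the tail, tongue and palate tables were made separately, so in every comparison of back skin with another site, body site and table set cannot be told apart. Markers went with the labels in part. Cd34, 1 of 5 listed bulge markers, had 48.6 to 72.7 TPM in tail bulge and 71.4 to 693 TPM in back bulge, against at most 0.81 TPM elsewhere. All 5 together did not set back bulge apart, with 3684 to 19200 TPM there, 7580 to 12180 in back basal LRC and 5946 to 12810 in back basal nLRC. The granular markers Flg and Lor summed to 32.27 to 416.5 TPM in granular cells. Their sums overlapped with spinous LRC (8 to 75.79 TPM) and back bulge (0.88 to 171 TPM). Krt13, a keratin of oral epithelium, had 271.7 to 8505 TPM in tongue and palate and at most 1.58 TPM in skin. Krt1 and Krt10, which mark the spinous layer, summed to 22670 to 38930 TPM in spinous LRC but to only 4023 to 9343 TPM in spinous nLRC, against 3953 to 6586 TPM in back basal cells. Back bulge library 2 stood apart, with a TMM scaling factor of 0.50 in the back skin fit against 1.19 and 1.08 in the other back bulge libraries. In sorted bulk RNA, fewer cells of a type and less RNA per cell cannot be told apart.

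Hox transcripts marked skin, and the paralog numbers in use differed between tail and back. Summed over the set, Hox genes had 324.5 ± 84.5 TPM in tail bulge, 181.1 ± 11.9 in tail basal LRC and 158.8 ± 36.3 in tail basal nLRC (SD, n = 3 each). In back skin the sum was 636.2 ± 368 TPM in bulge, 662.6 ± 103 in basal LRC and 614.0 ± 87.2 in basal nLRC (SD, n = 3 each). TPM of other genes also differed between the table sets, with 16 Polycomb genes summing to 93.7 to 156.2 TPM in tail basal and 397.9 to 512.6 TPM in back basal libraries. The genes Zc3h7a, Peak1, Filip1l and Gphn, singled out after their values were seen, together took 12.1 to 18.7% of gene reads in tail libraries and 0.097 to 1.18% in back libraries. The part of these differences in the Hox sums was not tested. The Hox sum was 3.40 and 3.15 TPM in the tongue LRC libraries, 3.14 and 3.29 in tongue nLRC, 0.61 and 0.67 in palate LRC and 0.58 and 0.18 in palate nLRC. Paralogs 9 to 13 held 66.5 ± 3.2% of Hox TPM in tail bulge, 52.2 ± 1.3% in tail LRC and 60.8 ± 3.6% in tail nLRC. They held 19.0 ± 1.6% in back bulge, 4.1 ± 1.8% in back basal LRC and 4.1 ± 1.9% in back basal nLRC. The range of tail basal libraries lay far above that of back basal libraries, with no overlap.

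Clusters differed in the same way. A gene was called expressed in a group when every library had at least 1 TPM. By this rule 21 of 39 Hox genes were expressed in tail bulge, 19 in tail LRC and 16 in tail nLRC, and 18 of 38 in back bulge, 20 each in back basal LRC and nLRC, and 21 each in spinous LRC, spinous nLRC and granular layer. Hoxc13 was the 1 expressed gene in tongue LRC and nLRC, and no Hox gene was expressed in palate. Cluster d had 5 expressed genes in each tail group, Hoxd4 and Hoxd8 to Hoxd11. It had 2 in back bulge, Hoxd8 and Hoxd9, and 0 in the 5 epidermal groups of back skin. Its share of Hox TPM was 67.9 ± 1.9% in tail bulge, 43.2 ± 2.6% in tail LRC and 39.1 ± 2.3% in tail nLRC, against 4.84 ± 1.44% in back bulge (SD, n = 3 each). Hoxb2 to Hoxb9 made up the expressed genes of cluster b at both skin sites, with 8 in each back group and 6 to 8 in the tail groups.

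**Figure D1:**
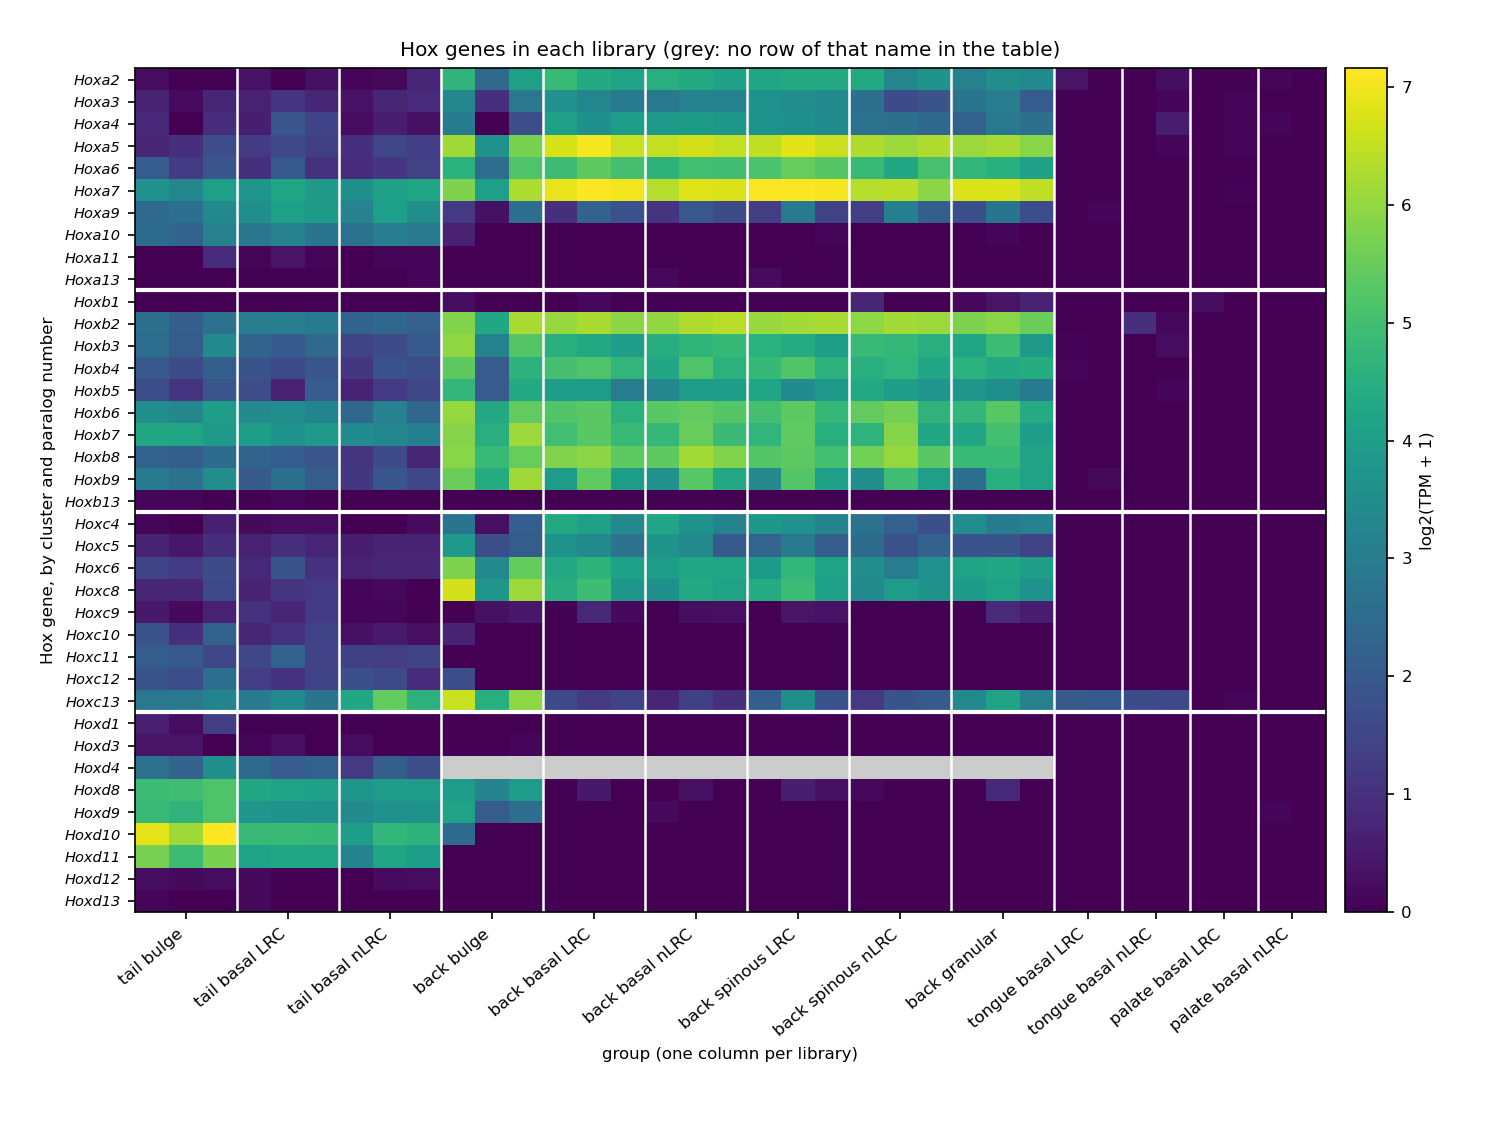
Level of 38 of the 39 Hox genes (rows, by cluster and paralog number) in each of the 35 libraries (columns, by group), as log2(TPM + 1). Tail libraries are bright in Hoxd8 to Hoxd11, back libraries in Hoxa5, Hoxa7 and Hoxb2 to Hoxb9, tongue shows Hoxc13 alone above 1 TPM in every library, and palate shows none.

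**Figure D2:**
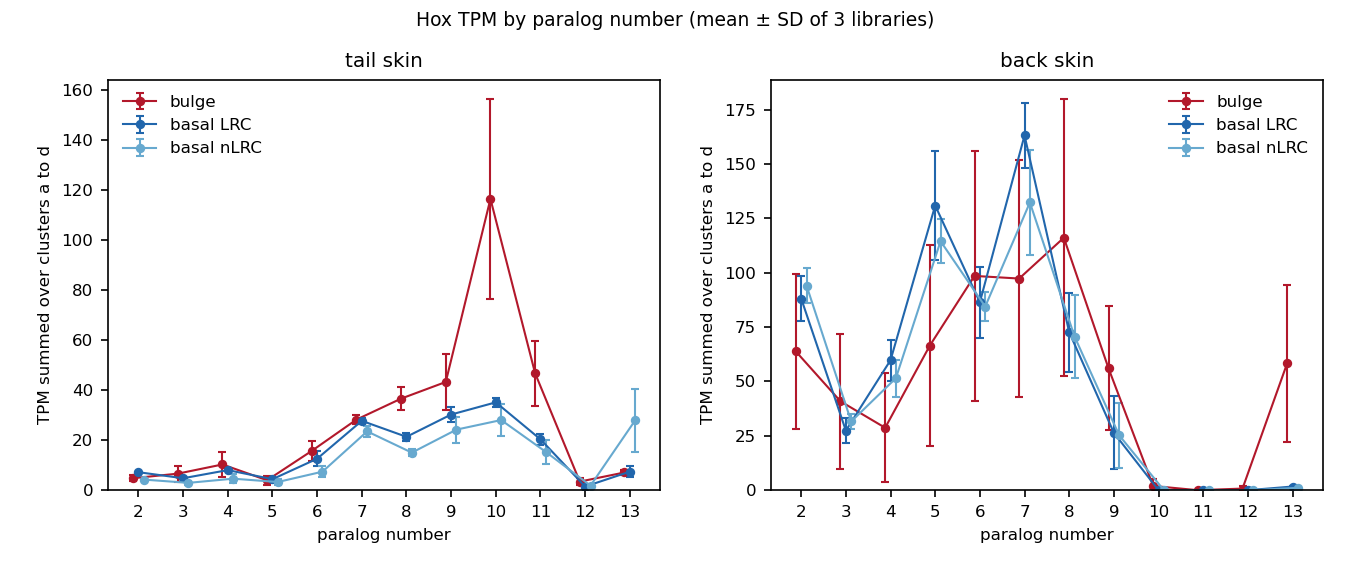
TPM summed over clusters a to d for paralog numbers 2 to 13, mean ± SD of 3 libraries, in tail skin (left) and back skin (right). Tail group means peak at paralog 10, at 116.6 ± 39.9 TPM in bulge, with paralog 13 nearly equal in nLRC (28.08 and 27.96 TPM). Back basal LRC peak at paralog 7 with 163.2 ± 14.8 TPM, and back bulge adds 58.4 ± 36.1 TPM at paralog 13.

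Against the oral epithelia, most tested Hox genes were higher in skin, 30 of 31 in tail and 21 of 31 in back. Tail basal cells had 30 of 31 tested Hox genes higher than the mean of tongue and palate basal cells by edgeR's quasi-likelihood test with a Benjamini-Hochberg adjusted p under 0.05 over all genes, and 0 lower. Of all 17103 genes tested, 32.9% were called in that comparison, 18% higher and 14.9% lower. The low-count filter keeps a gene that reaches it in a few libraries of the fit. In the fit of the oral libraries alone 1 Hox gene, Hoxc13, was tested. The others entered through tail or back, where they are high, so 0 lower was close to fixed in advance. Hoxa2, a gene of the hindbrain and branchial arches, did not pass (log2 fold change 1.83 ± 0.72, SE, adjusted p = 0.059, edgeR). The 7 members that were too low to be tested were Hoxa11, Hoxa13, Hoxb1, Hoxb13, Hoxd1, Hoxd12 and Hoxd13, and Hoxd4 had no shared row. Hoxd11 had 2341 reads over the 6 tail basal libraries and 0 over the 8 oral libraries, at least 132-fold higher with a floor of 3 reads per library. On the same floor Hoxd10 was at least 87.9-fold higher, Hoxd8 at least 73.8-fold, Hoxb6 at least 63.9-fold and Hoxa10 at least 44.9-fold. Hoxa7, with 1489 reads against 1, had a ratio of 2086 (95% counting interval 373.8 to 82450), an interval that covers counting error only. Hoxd3, with 98 reads against 1, overlapped and lost its call without tail nLRC 1 (4.54, adjusted p = 0.118). Fitted values of members with 1 to 12 oral reads moved by over 1.5 times without single tongue or palate libraries, with Hoxd9 at 9.78 without palate LRC 1 against 8.55 with it and Hoxa3 at 8.79 without tongue nLRC 2 against 7.55 with it.

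Back basal cells had 21 of 31 tested Hox genes higher than oral basal cells and 0 lower, where 61.2% of all genes were called, 31.7% higher and 29.6% lower. The members entered by the same filter, so 0 lower was again close to fixed in advance for all but Hoxc13. All 8 tested genes of cluster b and 8 of 9 of cluster a rose. In cluster c, Hoxc4, Hoxc5, Hoxc6, Hoxc8 and Hoxc9 passed and Hoxc10 to Hoxc13 did not, and 0 of 5 tested cluster d genes passed. Hoxa7 had 7649 reads against 1, a ratio of 5684 (95% counting interval 1020 to 224500), and Hoxa5 had 4112 against 2, a ratio of 1528 (422.7 to 12620). Hoxb6 was at least 111-fold and Hoxb8 at least 86.5-fold higher, both with 0 oral reads. Hoxc9 lost its call without back LRC 2 (2.5, adjusted p = 0.0911) or back nLRC 3 (3.22, adjusted p = 0.0502), with DESeq2 (adjusted p = 0.15), with limma on log2(TPM + 1) (adjusted p = 0.115), and against palate or tongue alone (adjusted p = 0.0809 and 0.0908, edgeR). Tail and back comparisons share the oral libraries. Markers of fibroblasts, a cell type of the underlying dermis, summed to 26.4 to 152.8 TPM in the oral groups, to 0.22 to 6.91 TPM in tail basal and to 0 to 0.85 TPM in back basal libraries. The oral sum was nearly all Dcn, a small matrix proteoglycan, at 26.37 to 152.7 TPM, and 4 to 6 of the 8 listed genes were at 0 in each oral library. Of the 3 fibroblast markers tested, 1 was higher and 1 lower in tail than in oral basal cells, where 18% and 14.9% of all genes were. In back, 0 were higher and 1 lower than in oral basal cells, where 31.7% and 29.6% of all genes were. The part of such cells in the result was not tested.

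Tail and back skin differed along the clusters, with low paralog numbers mostly lower and high ones mostly higher in tail. In the basal layer, 29 of 31 tested Hox genes differed between tail and back by edgeR's quasi-likelihood test, 11 higher and 18 lower in tail, where 58.3% of all genes were called, 31% higher and 27.2% lower. Of the 20 tested genes with paralog numbers 1 to 8, 17 were lower in tail and 2 higher, with a median log2 fold change of -2.23. Of the 11 with numbers 9 to 13, 9 were higher and 1 lower, with a median of 7.49, and the median over all genes tested was 0.07. The fitted values behind that second median depend on the prior count where back libraries had 0 reads. Members at or near 0 reads in back passed the low-count filter through tail, so their direction was close to fixed in advance. DESeq2's scaling moved the median of all genes by 0.21 in this comparison and by -0.135 in back against oral, and called no Hox gene in the other direction.

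Cluster a changed side between Hoxa7 and Hoxa9. Hoxa5, known for the axial skeleton of the neck and upper trunk and for lung development, had 1.42, 1.99 and 1.57 TPM in tail LRC and 0.97, 1.88 and 1.45 in tail nLRC, against 105.64, 131.90 and 92.79 TPM in back LRC and 89.01, 101.85 and 89.45 in back nLRC. Every tail library lay far below every back library (log2 fold change -4.53 ± 0.21, adjusted p = 1.01e-10, edgeR). Hoxa7, the most abundant Hox gene of back epidermis, had 12.46, 17.61 and 13.34 TPM in tail LRC and 10.92, 16.01 and 17.52 in tail nLRC, against 121.21, 140.61 and 130.55 TPM in back LRC and 81.13, 111.23 and 105.89 in back nLRC. The groups did not overlap, and the fall was smaller (-1.43 ± 0.15, adjusted p = 1.7e-06, edgeR). Hoxa2, Hoxa3, Hoxa4 and Hoxa6 were also lower in tail, by -2.29 to -4.60. Hoxa9, a posterior gene also known in blood progenitors, had 10.93, 15.76 and 13.86 TPM in tail LRC and 8.05, 15.32 and 10.84 in tail nLRC, against 0.98, 3.72 and 2.52 TPM in back LRC and 1.15, 2.86 and 2.09 in back nLRC. All tail libraries lay above all back libraries (3.85 ± 0.38, adjusted p = 4.1e-07, edgeR). Hoxa10 had 5.54 to 8.05 TPM over the 6 tail basal libraries and was listed at 0 in the 6 back basal libraries, with 790 reads against 1, a ratio of 1489 (95% counting interval 266.5 to 58900). The annotated span of Hoxa3 covers Hoxa4 to Hoxa6 on the same strand, so its counts are uncertain. An estimated 68.8 to 90.4% of its reads per library lay outside its exons. Such shares were not counted but inferred from TPM, exon length and genes without introns. They are rough, as the same estimate gave impossible values of -51.9 to -10.4% for Hoxc8.

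In cluster b the 7 called genes were all lower in tail. Hoxb8, which acts in thoracic patterning and in microglia, had 3.92, 3.41 and 2.67 TPM in tail LRC and 1.15, 2.13 and 0.72 in tail nLRC, against 54.31, 59.41 and 40.43 TPM in back LRC and 40.34, 70.11 and 54.34 in back nLRC (-3.08 ± 0.26, adjusted p = 2.1e-07, edgeR). The sites did not overlap. Hoxb2 to Hoxb6 fell by 0.79 to 2.20 on the log2 scale. Hoxb9 fell by 1.52 (SE 0.37, adjusted p = 0.0027, edgeR), though scaled read levels overlapped between the sites. Hoxb7 did not pass (-0.01 ± 0.29, adjusted p = 0.99, edgeR), yet on exon TPM it had 7.48 to 15 in tail and 26.31 to 44.31 in back basal libraries, and limma on log2(TPM + 1) gave -1.49 (adjusted p = 2.89e-08). The gap was not particular to Hoxb7. On TPM, Hoxa5, Hoxa7 and Hoxb8 also lay further below back than their edgeR values give, and Hoxa9 less far above. Neither the intron reads in the total counts nor the difference in TPM scale between the table sets was tested as the source of this gap. Hoxb5 and Hoxb6 overlap the antisense gene Hoxb5os, and use of strand in the counting is not given in the sources used here.

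Cluster c changed side between Hoxc8 and Hoxc10. Hoxc8, a thoracic gene, had 0.62, 1.17 and 1.34 TPM in tail LRC and 0.08, 0.11 and 0 in tail nLRC, against 21.19, 29.53 and 12.77 TPM in back LRC and 11.10, 19.40 and 16.43 in back nLRC. It was lower in every tail library (-4.62 ± 0.46, adjusted p = 1.1e-06, edgeR), and Hoxc4, Hoxc5 and Hoxc6 fell by 1.57 to 2.71 on the log2 scale. Hoxc9 was near the floor at both sites and did not pass (1.79 ± 1.04, adjusted p = 0.15, edgeR). Hoxc10, Hoxc11 and Hoxc12 had 47, 158 and 104 reads over the tail basal libraries and 0 over the back basal libraries, at least 4.75-fold, 16.2-fold and 11.3-fold higher. Hoxc13 had 1534 reads against 69 (5.06 ± 0.26, adjusted p = 1.2e-10, edgeR). The span of Hoxc5 covers Hoxc10, Hoxc9, Hoxc8 and Hoxc6 on its strand, so its value is uncertain. By the same rough estimate, 42.5 to 80.6% of its reads lay outside its exons.

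In cluster d all 5 tested genes were higher in tail basal cells. They had few or no reads in the other basal libraries and passed the low-count filter through tail, so that direction was close to fixed in advance. Hoxd8 to Hoxd11 stand next to each other on mm10 chromosome 2 on the plus strand, in the order Hoxd11 (74679557 to 74687016), Hoxd10 (74691924 to 74695105), Hoxd9 (74697727 to 74700208) and Hoxd8 (74704615 to 74707933). Hoxd10 and Hoxd11 are known for patterning the lumbar and sacral axis and the limb, and Hoxd11 with its paralogs for kidney development. Sequence upstream of the annotated start of these 4 genes is shown because they were higher together in tail skin and in the tail bulge. The windows come from RefSeq with the build GRCm38.p6, are on the plus strand, and have CG dinucleotides in capitals.
Hoxd8, chr2:74704365-74704614: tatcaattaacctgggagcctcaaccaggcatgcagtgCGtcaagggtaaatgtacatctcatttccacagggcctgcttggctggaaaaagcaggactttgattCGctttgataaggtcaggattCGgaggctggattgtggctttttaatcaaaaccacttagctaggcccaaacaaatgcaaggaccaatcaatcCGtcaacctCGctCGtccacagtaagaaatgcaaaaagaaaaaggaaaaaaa
Hoxd9, chr2:74697513-74697726: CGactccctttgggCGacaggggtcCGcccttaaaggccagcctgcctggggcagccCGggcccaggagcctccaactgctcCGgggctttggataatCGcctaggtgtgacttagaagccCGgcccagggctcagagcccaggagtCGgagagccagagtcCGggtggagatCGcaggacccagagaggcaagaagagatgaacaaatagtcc
Hoxd10, chr2:74691641-74691890: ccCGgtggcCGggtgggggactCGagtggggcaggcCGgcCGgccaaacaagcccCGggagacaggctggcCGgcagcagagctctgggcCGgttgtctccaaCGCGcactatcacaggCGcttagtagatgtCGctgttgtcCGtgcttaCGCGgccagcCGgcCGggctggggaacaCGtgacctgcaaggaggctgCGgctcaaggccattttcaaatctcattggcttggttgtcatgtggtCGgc
Hoxd11, chr2:74679308-74679556: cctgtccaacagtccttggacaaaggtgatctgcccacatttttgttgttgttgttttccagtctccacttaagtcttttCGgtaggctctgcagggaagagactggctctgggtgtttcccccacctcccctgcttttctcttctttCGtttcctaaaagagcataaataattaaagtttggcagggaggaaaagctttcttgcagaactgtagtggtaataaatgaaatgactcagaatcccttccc
These stretches hold 6, 10, 20 and 2 CG. That of Hoxd9 is cut at the annotated start to 214 bases, and its full window of 250 bases held 13 CG. Genes that moved together thus had CG-rich and CG-poor windows side by side, and a second RefSeq start of Hoxd11 had 20 CG in its window. Over the 24 windows matched for 22 of the 39 Hox genes, the median was 12.5 CG in 250 bases, with a range of 2 to 35, against a median of 6 over all 32851 promoters. The letters TATAAA, on either strand, occurred in 4 of the 24 Hox windows, those of Hoxa10, Hoxb8, Hoxd4 and Hoxd13, and in 12.4% of all promoters.

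Hoxd10 had 27.26, 28.13 and 26.89 TPM in tail LRC and 15.05, 25.58 and 23.58 TPM in tail nLRC, and was listed at 0 in all 6 back basal libraries. It had 1575 reads against 0, at least 163-fold higher in tail. Hoxd11 had 16.70, 18.63 and 17.90 TPM in tail LRC and 8.35, 17.83 and 14.85 in tail nLRC, against 0 in back, and with 2341 reads against 0 was at least 245-fold higher. Hoxd9 had 9.68 to 12.33 TPM over the tail basal libraries and 0 to 0.13 over the back basal libraries, with 809 reads against 1, a ratio of 1525 (95% counting interval 273 to 60310). Hoxd8 had 12.54 to 18.22 TPM in tail and 0 to 0.40 TPM in back basal libraries (8.29 ± 0.48, adjusted p = 6.1e-09, edgeR). All 4 genes separated the sites in every library. Fibroblast markers summed to 0.22 to 0.45 TPM in tail LRC and 1.62 to 6.91 TPM in tail nLRC, against 0 to 0.85 TPM in back basal libraries, and 2 of 3 tested were higher in tail. Endothelial markers summed to at most 0.29 TPM in tail and 0.67 TPM in back basal libraries, and 3 of 4 were higher in tail. Of all genes, 31% were higher in that comparison. The part of these cells in the result was not tested. Hoxd3 passed too, at least 9.78-fold higher in tail, but overlapped. It lies over Hoxd4, with a rough estimate of 84.0 to 100% of its reads outside its exons. It was not called without tail nLRC 1 (5.19, adjusted p = 0.0532, edgeR) or by DESeq2. Without back LRC 2 or back nLRC 2, which held its few back reads, the log2 fold change of Hoxd8 was 9.82 and 9.57. The fitted values of Hoxd9 and Hoxa10, 9.73 and 9.64, were both 10.4 without the library that held the 1 back read, back nLRC 1 and back LRC 3.

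**Figure D3:**
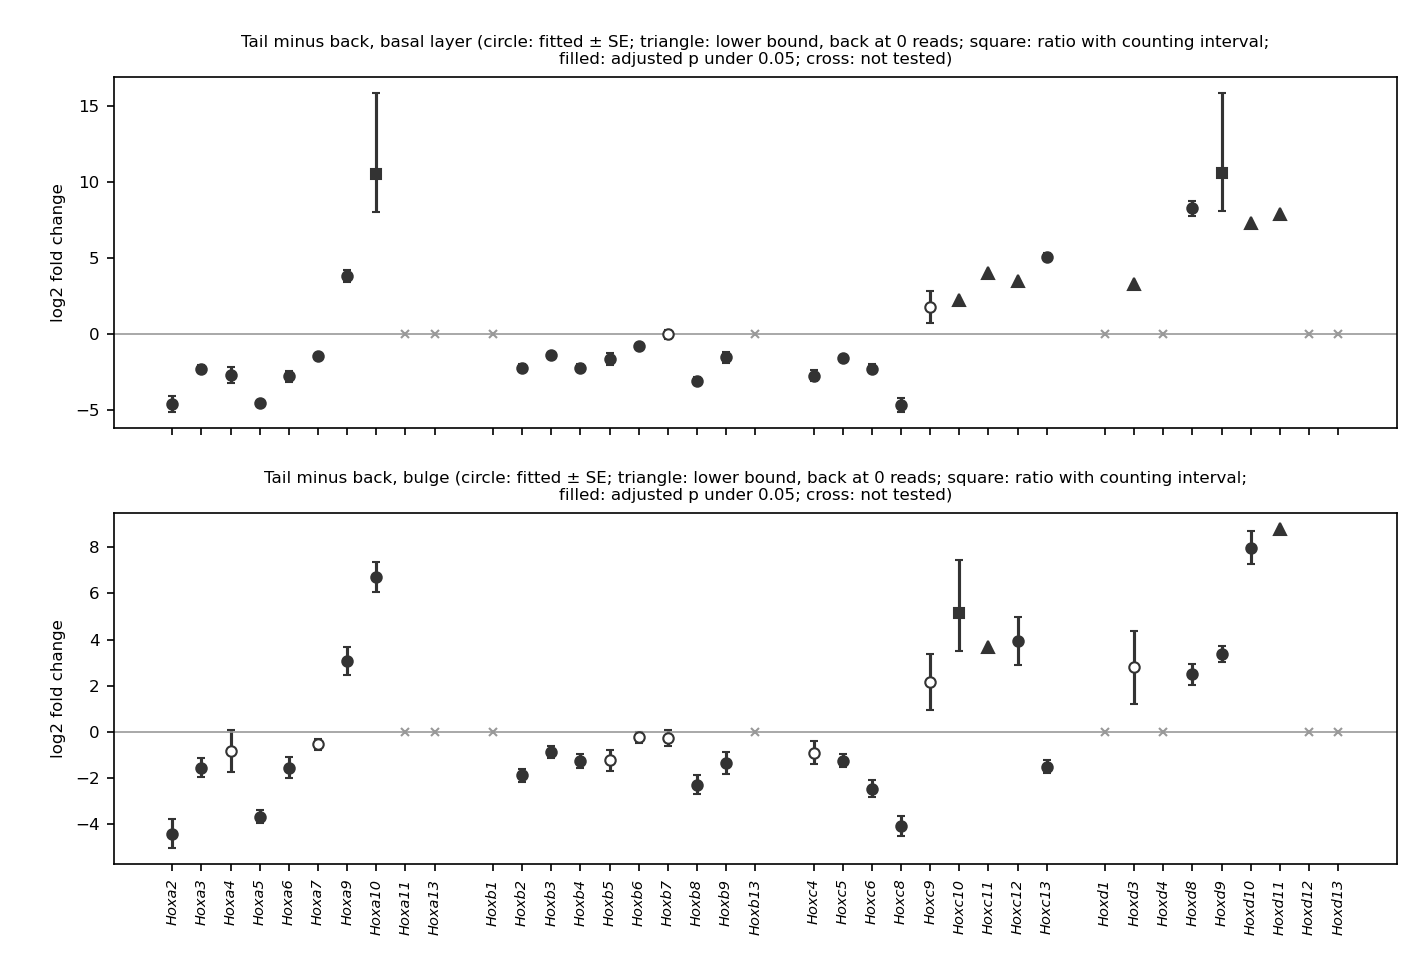
Log2 fold change of tail over back for 38 Hox genes in the basal layer (top) and the bulge (bottom). Circles are edgeR values ± SE, triangles lower bounds where back libraries had 0 reads, squares ratios with 95% counting intervals, filled symbols have an adjusted p under 0.05, and crosses were not tested; in the basal layer they run from a log2 value of -4.62 for Hoxc8 to a ratio of 1525 for Hoxd9.

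The bulge of tail skin had more posterior cluster d RNA than the basal layer around it. Of 29 tested Hox genes, 11 were higher and 2 lower in tail bulge than in tail basal cells by edgeR's quasi-likelihood test, where 24.6% of all genes were called, 14.2% higher and 10.4% lower. Hoxd4 and Hoxd8 to Hoxd11 made up 5 of the 11. Hoxd10 had 115.17, 69.23 and 141.77 TPM in tail bulge, against 27.26, 28.13 and 26.89 TPM in tail LRC and 15.05, 25.58 and 23.58 in tail nLRC. Every bulge library lay above every basal library (2.18 ± 0.13, adjusted p = 1.8e-06, edgeR). Hoxd11 had 50.81, 28.76 and 51.90 TPM in tail bulge, against 16.70, 18.63 and 17.90 TPM in LRC and 8.35, 17.83 and 14.85 in nLRC (1.79 ± 0.15, adjusted p = 2.2e-05, edgeR). Hoxd9 had 27.36, 24.23 and 35.50 TPM in bulge, against 12.33, 11.70 and 11.59 in LRC and 9.68, 11.36 and 11.50 in nLRC (1.49 ± 0.13, adjusted p = 2.7e-05, edgeR). Hoxd8 rose by 1.2 ± 0.16 (adjusted p = 0.00039) and Hoxd4, which takes part in hindbrain and neck patterning, by 1.49 ± 0.31 (adjusted p = 0.0062, edgeR). On scaled read counts none of these 5 genes overlapped between bulge and basal libraries, while on TPM Hoxd4 did, with 5.34, 3.88 and 10.80 in bulge against 4.41, 3.12 and 3.70 in LRC. Among genes of the other clusters, Hoxb9, a posterior thoracic gene, rose most clearly, with 6.70, 5.39 and 10.37 TPM in bulge against 2.98, 5.20 and 3.35 in LRC and 1.23, 2.74 and 1.88 in nLRC (1.42 ± 0.22, adjusted p = 0.00097, edgeR).

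The remaining tail bulge calls were less firm. Hoxb3 rose by 0.93 ± 0.20 (adjusted p = 0.00802, edgeR) without overlap. Hoxb6, Hoxc8, Hoxc10 and Hoxc12 overlapped between bulge and basal libraries (adjusted p = 0.016 to 0.047, edgeR). Each lost its call without one or more libraries, and the lowest of the values that lost it were 0.45 for Hoxb6 (without tail bulge 3), 2.08 for Hoxc8 (without tail bulge 3), 1.58 for Hoxc10 (without tail bulge 1) and 1.05 for Hoxc12 (without tail nLRC 3). Hoxa9 was lower in bulge (-0.74 ± 0.19, adjusted p = 0.017, edgeR) but not called without tail bulge 1 (-0.59, adjusted p = 0.0724). With the replicate number as a block, Hoxb7 (0.72, adjusted p = 0.0278) and Hoxb8 (1.05, adjusted p = 0.0218) were called too, which missed the threshold without it (adjusted p = 0.0763 and 0.0562, edgeR). Endothelial markers summed to 28.2, 7.17 and 41.1 TPM in the tail bulge libraries, against at most 0.29 TPM in tail basal libraries, and fibroblast markers to 11.7, 4.73 and 11.2 TPM, against 0.22 to 6.91 TPM. Markers of Merkel cells, the touch receptor cells of the epidermis, summed to 57.5, 70.1 and 57.0 TPM, against 0 to 1.12 TPM in tail basal libraries, nearly all of it Krt8, while the Merkel cell markers Krt20 and Atoh1 were at 0 in each tail bulge library. Tail bulge 2 had the lowest Hox sum of the bulge libraries, 238.2 TPM against 328.4 and 407, and the lowest Hoxd10 and Hoxd11. It also had the lowest endothelial and fibroblast sums and the highest Merkel cell sum. The part of these cells in the result was not tested.

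In back skin the bulge differed from the basal layer in other genes. Of 23 tested Hox genes, 6 were higher and 6 lower in back bulge than in back basal cells by edgeR's quasi-likelihood test, where 26.3% of all genes were called, 15.7% higher and 10.6% lower. The higher genes were Hoxb7, Hoxc6, Hoxc8, Hoxc13, Hoxd8 and Hoxd9, and the lower ones included Hoxa3, Hoxa4, Hoxa5, Hoxa7 and Hoxc4. Hoxd8 and Hoxd9, near 0 in the back epidermal groups, passed the low-count filter through bulge, so their direction was close to fixed in advance. Hoxd8 had 14.55, 8.13 and 14.40 TPM in back bulge, against 0, 0.40 and 0 TPM in back LRC and 0, 0.26 and 0 in back nLRC. All bulge libraries stood above all basal libraries (7.14 ± 1.06, adjusted p = 9.7e-05, edgeR), and the value was 8.80 without back LRC 2 and 8.54 without back nLRC 2. Hoxd9 had 16.54, 3.21 and 4.92 TPM in back bulge, against 0 to 0.13 TPM in back basal libraries, with 153 reads against 1, a ratio of 408.1 (95% counting interval 72.17 to 16220). Hoxd4_1, one of the names under which back tables list Hoxd4, had 5.79, 2.09 and 3.59 TPM in back bulge and 0 to 0.10 TPM in basal libraries, with 196 reads against 1. Hoxd10 was at 4.65, 0 and 0 TPM in back bulge, and Hoxd11 was listed at 0 in every back library.

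Among the other back bulge calls, Hoxc8 had 100.92, 12.25 and 68.11 TPM in bulge, against 21.19, 29.53 and 12.77 TPM in LRC and 11.10, 19.40 and 16.43 in nLRC. On TPM the groups overlapped through back bulge 2, while scaled read counts gave a rise (1.79 ± 0.29, adjusted p = 0.00022, edgeR) that limma on log2(TPM + 1) did not call (1.29, adjusted p = 0.0763). Hoxc6 likewise overlapped on TPM through back bulge 2 and rose in edgeR (1.08 ± 0.24, adjusted p = 0.0026) but not in limma (0.61, adjusted p = 0.342). Hoxb7 overlapped and lost its call in 6 of the fits without 1 library, for instance without back bulge 2 (0.83, adjusted p = 0.123). Hoxa5 had 68.94, 11.43 and 51.66 TPM in bulge, against 89.01 to 131.90 TPM over the 6 basal libraries (-1.05 ± 0.16, adjusted p = 0.00014, edgeR). Hoxa4 fell by 2.33 (adjusted p = 0.00399, edgeR), and the value was -3.23 without back bulge 1. Without back bulge 2 altogether, 13 Hox genes were called in place of 12, with Hoxc13 at 5.65, Hoxd8 at 6.56 and Hoxc8 at 1.92. Endothelial markers summed to 328.2, 9.05 and 116.2 TPM in the back bulge libraries against at most 0.67 TPM in back basal libraries. Melanocyte markers summed to 136.3, 6.91 and 360.8 TPM against 2.20 to 13.7 TPM, and fibroblast markers to 47.5, 5.27 and 7.93 TPM against at most 0.85 TPM. Merkel cell markers summed to 16.4, 3.21 and 5.78 TPM against at most 0.73 TPM, with Atoh1 at 0 in each. Back bulge 2 had the lowest of these sums and the lowest Hoxd8 and Hoxc13 of the back bulge libraries, at 8.13 and 21.38 TPM. It was also the lowest in Hoxa5 and in the sum of all Hox genes, at 218.5 TPM against 914.9 and 775.2. Its endothelial and fibroblast sums still lay above those of every back basal library. The part of such cells in the result was not tested.

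Set directly against each other, the bulges of tail and back differed along the clusters much as the basal layers did. In tail bulge 9 of 31 tested Hox genes were higher and 13 lower than in back bulge by edgeR's quasi-likelihood test, where 25.5% of all genes were called, 13.1% higher and 12.4% lower. Of paralogs 1 to 8, 1 of 20 was higher and 11 were lower, and of paralogs 9 to 13, 8 of 11 were higher and 2 lower. The higher genes Hoxa10, Hoxc10, Hoxc11, Hoxc12, Hoxd10 and Hoxd11 were at or near 0 in most back libraries. They passed the low-count filter through tail, so their direction was close to fixed in advance. Hoxd11 had 3302 reads against 0, at least 447-fold higher. Hoxd10 (7.98 ± 0.71), Hoxd9 (3.37 ± 0.36) and Hoxd8 (2.49 ± 0.47, adjusted p = 8.3e-06, 1.6e-05 and 0.0011, edgeR) were higher in tail without overlap. Back bulge 1 held all back bulge reads of Hoxd10, Hoxa10, Hoxc10 and Hoxc12. The fitted log2 values of these genes were 13.6, 10.3, 7.97 and 8.70 without that library and 7.98, 6.71, 5.07 and 3.95 with it. Hoxa5 (-3.67 ± 0.28, adjusted p = 2.7e-07) and Hoxc8 (-4.06 ± 0.45, adjusted p = 9.3e-06, edgeR) were the lower genes with the smallest p. Hoxb9, Hoxa3, Hoxa6 and Hoxb3 were called lower but lost the call without one or more libraries, at -1.03 for Hoxb9 without back bulge 2, -1.2 for Hoxa3 without tail bulge 2, -1.2 for Hoxa6 without back bulge 3 and -0.54 for Hoxb3 without back bulge 1. The value of Hoxa9 was 3.08 with all libraries and 4.41 without back bulge 3, and that of Hoxa2 was -4.40 and -5.34 without tail bulge 2. Melanocyte markers summed to 2.46 to 6.24 TPM in tail bulge, against 6.91 to 360.8 TPM in back bulge, with 4 of 5 tested lower, and the part of these cells in the result was not tested.

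The difference between bulge and basal layer was itself compared between the sites. By the interaction term in edgeR's quasi-likelihood test, 3 Hox genes differed, where 8.14% of 16416 genes were called, 3.57% higher and 4.57% lower. All 3 had the higher bulge-to-basal difference in back skin. The term, tail minus back, was -6.60 ± 0.39 for Hoxc13 (adjusted p = 7.6e-08), -5.84 ± 0.72 for Hoxd8 (adjusted p = 0.00011) and -6.42 ± 0.64 for Hoxd9 (adjusted p = 4e-05). Hoxd8 and Hoxd9 were higher in bulge than in basal layer at both sites, but back basal cells had 7 and 1 reads of them, so the size of these terms rests on a near-empty group. For Hoxd8 the term was -7.39 without back LRC 2 and -7.12 without back nLRC 2, and for Hoxd9 -7.11 without back nLRC 1. Without back bulge 3 the count of called Hox genes was 7.

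**Figure D4:**
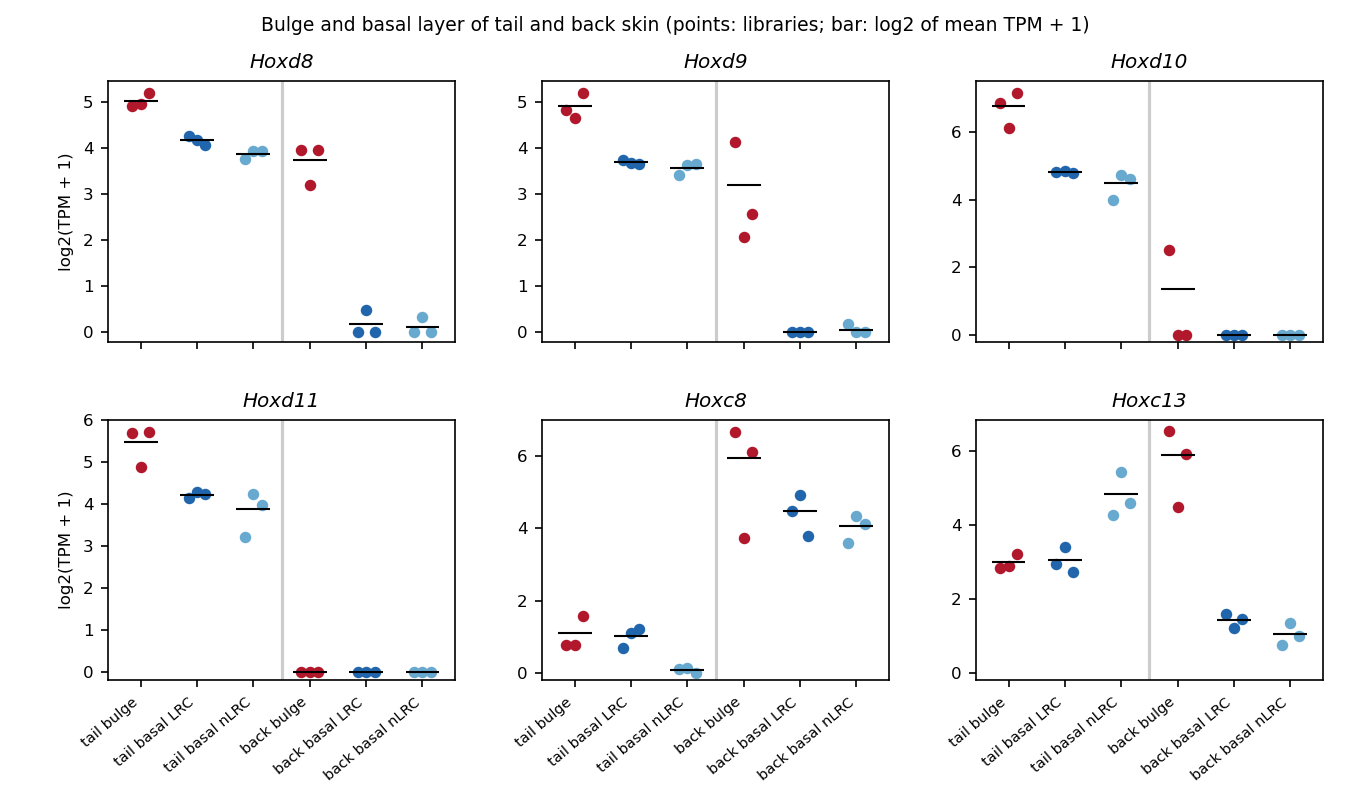
Level of 6 Hox genes as log2(TPM + 1) in bulge, basal LRC and basal nLRC of tail skin (left of the line) and back skin (right), with 3 libraries per group as points and the log2 of mean TPM + 1 as a bar. Hoxd10 and Hoxd11 are highest in tail bulge, Hoxd8 and Hoxd9 appear in back skin in the bulge, and Hoxc13 is lower in tail bulge than in tail nLRC but highest of all in back bulge.

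Hoxc13 followed neither axis. It had 6.19, 6.50 and 8.37 TPM in tail bulge, 6.77, 9.62 and 5.63 in tail LRC and 18.28, 42.06 and 23.46 in tail nLRC. In back skin it had 93.46, 21.38 and 60.35 TPM in bulge, 2.01, 1.33 and 1.73 in basal LRC and 0.70, 1.55 and 0.99 in basal nLRC. Spinous LRC had 3.37, 10.60 and 2.49 TPM, spinous nLRC 1.30, 2.65 and 3.05, and granular cells 9.29, 16.44 and 7.67. In the order of group means, back bulge stood first, then tail nLRC, then granular cells, with the ranges of back bulge and tail nLRC overlapping, and granular cells overlapping with tail LRC and tail bulge. Back bulge was 54.1-fold higher than back basal cells (log2 5.76 ± 0.40, adjusted p = 5.8e-08, edgeR), while tail bulge was lower than the mean of tail LRC and nLRC (-0.85 ± 0.24, adjusted p = 0.028, edgeR). Tail bulge overlapped with tail LRC and lay below every tail nLRC library, and the call was lost without tail bulge 1 (-0.78, adjusted p = 0.0981) or tail bulge 3 (-0.81, adjusted p = 0.0911). Tail bulge was also lower than back bulge (-1.51 ± 0.28, adjusted p = 0.0011, edgeR).

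In the oral tissues Hoxc13 set tongue apart from palate. Tongue LRC had 2.99 and 2.95 TPM and tongue nLRC 2.14 and 2.01, against 0 and 0.06 TPM in palate LRC and 0 and 0 in palate nLRC. It was the 1 Hox gene tested in that fit and passed (adjusted p = 0.0011, edgeR), where 9.62% of all genes were called, 4.91% higher and 4.71% lower, with 151 reads against 1, a ratio of 157.8 (95% counting interval 27.9 to 6275). The fitted log2 value was 7.14 and, without palate LRC 2, which held that 1 read, 8.26. Hoxc13 passed the low-count filter through tongue, so its direction here was close to fixed in advance. Against the mean of both oral tissues, back basal cells did not pass (1.11 ± 0.50, adjusted p = 0.064, edgeR). Against palate alone they were higher (4.77, adjusted p = 4.82e-05), and against tongue alone lower (-2.54, adjusted p = 9.7e-07). Tail basal cells were higher than the oral mean (6.18 ± 0.31, adjusted p = 2.8e-10, edgeR), with every tail library above every oral library.

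**Figure D5:**
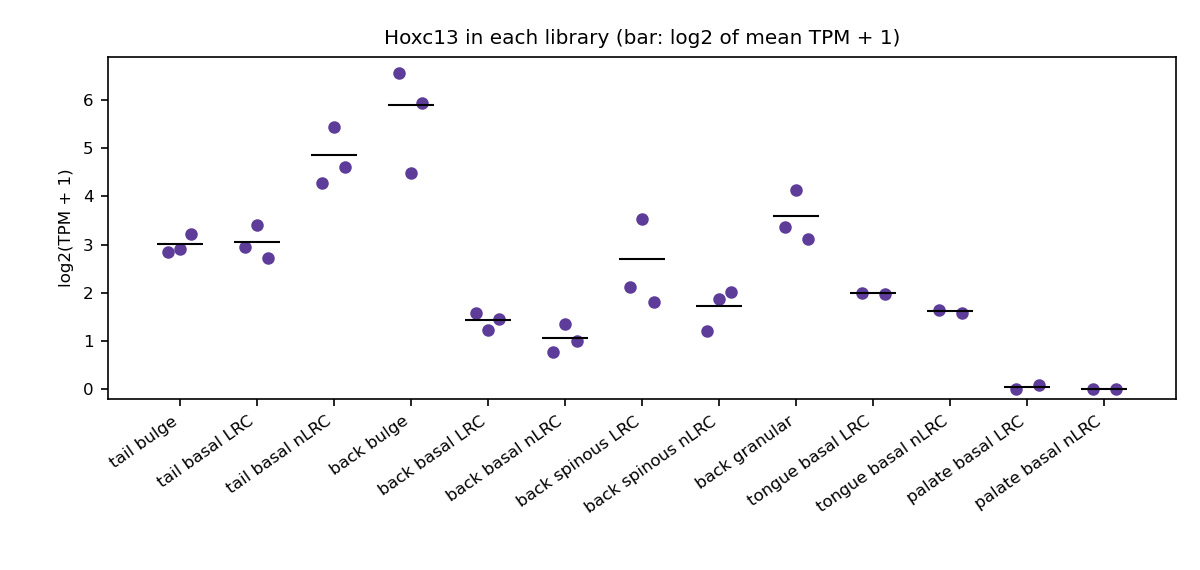
Hoxc13 as log2(TPM + 1) in every library of the 13 groups, with the log2 of the group's mean TPM + 1 as a bar. Back bulge and tail nLRC are highest, tongue libraries sit between 2.01 and 2.99 TPM, and palate libraries are at 0 to 0.06 TPM.

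Few Hox genes were called between slow- and fast-cycling cells of one layer. In the basal layers few of all genes were called either. In tail basal cells 3 of 29 tested genes were called between LRC and nLRC, where 4.6% of all genes were, 3.12% higher and 1.48% lower. Hoxc13 was lower in LRC without overlap (-2.38 ± 0.27, adjusted p = 0.0011, edgeR). Bulge markers summed to 1593 to 3074 TPM in tail LRC, against 324.4 to 602.4 TPM in tail nLRC, mostly Krt15, a keratin that basal cells also make, and 3 of 5 were higher in LRC. Cd34 was at most 0.17 TPM in LRC and 0.03 TPM in nLRC. The part of follicle cells in the result was not tested. Hoxc9 and Hoxc8 were higher, with 52 reads against 2, a ratio of 20.7 (95% counting interval 5.45 to 175.4), and with 28 against 2, a ratio of 11.2 (2.81 to 96.5). Hoxc8 lost its call in every fit without 1 of the 9 tail libraries (adjusted p = 0.0722 to 0.173), and Hoxc9 in 5 of them, for instance without tail LRC 3 (3.69, adjusted p = 0.108). With the replicate number as a block Hoxb3 was called as well (0.62, adjusted p = 0.0198; without the block adjusted p = 0.187, edgeR). In back basal cells 0 of 23 tested genes were called by edgeR, where 0.235% of all genes were (0.0121% higher and 0.223% lower), and 0 had an unadjusted p under 0.05. In palate and tongue the 1 tested gene, Hoxc13, did not pass (edgeR calls in all genes 0% and 0.0067%). The difference between sites was tested for tail and back, and Hoxc13 was the 1 Hox gene called, where 1.49% of genes were, 1.29% higher and 0.195% lower (tail minus back, -2.90 ± 0.46, adjusted p = 0.0028, edgeR).

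In the spinous layer of back skin 4 of 23 Hox genes were higher in LRC than in nLRC and 0 lower. That share, 17.4%, was near the 15.5% of all genes called, 6.88% higher and 8.63% lower. Hoxa3 (1.2 ± 0.27, adjusted p = 0.0064), Hoxc6 (1.04 ± 0.29, adjusted p = 0.0201), Hoxa7 (0.78 ± 0.23, adjusted p = 0.028) and Hoxc4 (0.93 ± 0.30, adjusted p = 0.044, edgeR) were the 4. Hoxa7 had 136.38, 141.60 and 134.19 TPM in spinous LRC, against 80.54, 84.46 and 59.80 TPM in spinous nLRC, without overlap. Hoxa7 lost its call without any 1 of the 6 spinous libraries, with the lowest value 0.68 without spinous nLRC 1. Hoxc6 lost it without any 1 of 4 of them, with 0.88 without spinous nLRC 2. Hoxc4 lost it without any 1 of the 6 (0.77 without spinous LRC 1), in 8 fits without 1 basal or granular library, with no filter (adjusted p = 0.165) and with only the groups compared (adjusted p = 0.052). Limma on TPM called 0 of the 4. With only the groups compared, Hoxb8 was called lower in LRC (-0.68, adjusted p = 0.0448, edgeR). With the replicate number as a block Hoxc5 was called too (0.67, adjusted p = 0.0493; without it 0.134, edgeR). Spinous nLRC libraries had spinous marker sums close to those of basal cells, as given above, and the part of this in the result was not tested.

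Along the layers of back skin, the Hox pattern held nearly the same paralog numbers. The mean paralog number weighted by TPM was 5.52 ± 0.13 in basal LRC, 5.37 ± 0.18 in basal nLRC, 5.52 ± 0.17 in spinous LRC, 5.48 ± 0.25 in spinous nLRC and 5.67 ± 0.11 in granular cells (SD, n = 3 each). It was 6.71 ± 0.21 in back bulge, and 8.87 ± 0.07, 8.20 ± 0.07 and 9.01 ± 0.24 in tail bulge, LRC and nLRC. Spinous against basal cells gave 3 calls of 23, where 9.07% of all genes were called, 4.9% higher and 4.18% lower: Hoxc13 was higher (1.57 ± 0.35, adjusted p = 0.0076), and Hoxc5 (-0.89 ± 0.20, adjusted p = 0.0099) and Hoxc4 (-0.77 ± 0.21, adjusted p = 0.027, edgeR) were lower, the last lost without any of 8 libraries (-0.67 without back LRC 1). Granular against basal cells gave 5 calls of 23, where 20% of all genes were called, 11.2% higher and 8.85% lower. Hoxc13 was higher without overlap (3.12 ± 0.38, adjusted p = 1.8e-05), and Hoxc5 (-1.47 ± 0.27), Hoxa2 (-1.01 ± 0.25), Hoxb8 (-1.14 ± 0.29) and Hoxa5 (-0.61 ± 0.16, adjusted p = 0.00072 to 0.011, edgeR) were lower. Without granular 3, Hoxa5 (-0.56) and Hoxb8 (-0.97) were not called, and Hoxa2 (-0.87) was not without granular 1. Immune markers summed to 14.1, 36.7 and 10.9 TPM in granular cells, against 1.46 to 6.26 TPM in back basal libraries, with 4 of 5 higher. Fibroblast markers summed to 2.02, 12.01 and 0.41 TPM against at most 0.85 TPM, with 2 of 6 tested higher, and the part of these cells in the result was not tested. Without back bulge 2 the count was 9, and without back bulge 1 it was 8. With the replicate number as a block 10 genes were called, adding on the lower side, among others, Hoxa3 (-0.67, adjusted p = 0.0376), Hoxb2 (-0.45, 0.0455), Hoxb9 (-0.71, 0.0109) and Hoxc4 (-0.70, 0.019, edgeR).

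Noncoding genes of the clusters were tested in the same fits. Of 11 listed noncoding genes inside the clusters, 7 were tested between tail and back basal cells. Of these 3 were higher and 4 lower in tail, where 31% of all genes were higher and 27.2% lower. Of the 4 with the smallest p, Hoxd3os1 and Hotair were higher and Hoxaas3 and Hotairm1 lower. Against oral basal cells all 7 were higher in tail, where 18% of all genes were. The listed noncoding genes summed to at most 0.48 TPM in any oral library. They passed the low-count filter through skin, so that direction was close to fixed in advance. Hotair, the noncoding RNA between Hoxc11 and Hoxc12, had 2.17 to 4.43 TPM in tail bulge, 0.68 to 1.31 in tail LRC and 0.94 to 1.88 in tail nLRC, and was listed at 0 in every back library. It rose in tail bulge against tail basal cells (1.35 ± 0.38, adjusted p = 0.029, edgeR). Hoxd3os1, antisense to Hoxd8, rose in bulge in tail (0.61 ± 0.15, adjusted p = 0.014) and in back (8.37 ± 1.08, adjusted p = 0.00055, edgeR), and its reads and those of Hoxd8 cannot be told apart if strand was not used.

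The TALE homeodomain proteins, Pbx, Meis and Pknox, bind DNA together with Hox proteins. Between tail and back basal cells 5 of 8 tested members were lower in tail and 1 higher, where 27.2% of all genes were lower and 31% higher. Meis2 (-1.68 ± 0.20), Pbx2 (-1.16 ± 0.13) and Pbx4 (-1.09 ± 0.21) fell and Meis1 rose (0.39 ± 0.15, adjusted p = 0.029, edgeR), with a list median of -0.68 against 0.07 for all genes. Against oral cells Meis2 was much lower in tail (-3.45 ± 0.21, adjusted p = 1.2e-09, edgeR), with 3 members lower and 1 higher, where 32.9% of all genes were called. In the bulge, Meis2 went opposite ways against the basal layer, higher in tail (1.60 ± 0.24, adjusted p = 0.00086) and lower in back (-1.97 ± 0.36, adjusted p = 0.00064, edgeR). The interaction term, tail minus back, was 3.59 ± 0.50 for Meis2 (adjusted p = 0.00034, edgeR). Of 16 Polycomb genes, which encode repressors of silent Hox genes, 4 were higher and 8 lower in tail than in back basal cells, against 31% and 27.2% of all genes, with Jarid2 at 3.38 ± 0.34 and Cbx2 at -1.78 ± 0.15 (adjusted p = 1.6e-07 and 1.5e-08, edgeR). Against tail basal cells, 5 were higher and 1 lower in tail bulge, and against back basal cells 4 higher and 2 lower in back bulge, where 24.6% and 26.3% of all genes were called. Of 8 Trithorax and H3K27 demethylase genes, 2 were higher and 3 lower in tail than in back basal cells, a share close to the 58.3% of all genes, 0 were called in tail bulge and 1 was higher in back bulge.

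Retinoic acid is a classical inducer of Hox genes, and genes of its pathway were called between bulge and basal layer at shares not far from those of all genes. In back bulge 3 of 12 tested genes were higher and 1 lower, where 26.3% of all genes were called, among them the degrading enzyme Cyp26b1 (4.31 ± 0.35, adjusted p = 2.3e-07), the receptor Rarb (2.66 ± 0.50) and the binding protein Crabp2 (1.75 ± 0.33, adjusted p = 0.000801 and 0.000779, edgeR). In tail bulge 3 of 11 were higher and 1 lower, where 24.6% of all genes were called, with Cyp26b1 at 1.5 ± 0.34 and Crabp2 at 1.30 ± 0.20 (adjusted p = 0.0091 and 0.0011, edgeR). Between tail and back basal cells 5 of 15 were higher and 6 lower, where 58.3% of all genes were called. None of the 8 Cdx and Evx genes, posterior homeobox genes that act on or flank the clusters, had enough reads to be tested.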

How the data were processed

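RNA of flow-sorted epithelial cells was made into strand-specific total RNA libraries with a SMARTer Pico kit, per the labels' protocols, and the build is mm10, per the submitters' processing notes. Which aligner, counter and strand setting served is not given in the sources used here. The deposited tables give, per library, counts of total gene reads, which include intron reads, and TPM values that the authors scaled by exon length.

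Counts were tested with edgeR 4.0.16 (R 4.3.3, TMM scaling, quasi-likelihood test, Benjamini-Hochberg adjusted p under 0.05 over all genes) after a filter for low counts (filterByExpr, minimum count 10, minimum total 15). A gene near 0 in 1 group passes this filter only through groups where it is high, so the direction of its call is close to fixed in advance. Separate fits held the 18 back libraries, the 9 tail libraries, the 8 oral libraries, the 20 basal layer libraries of all sites and the 18 bulge and basal libraries of tail and back skin; the written plan gave the last number wrongly as 21. Basal cells of a site are the mean of LRC and nLRC, and sites were compared over names that both table sets share. Alternatives were DESeq2 1.42.0, median-of-ratios scaling, no filter, limma 3.58.1 on log2(TPM + 1) and log2(TPM + 0.1) of the deposited TPM, a replicate block, fits of the compared groups alone, palate or tongue alone, and leaving out each library. Folds against groups at 0 reads use a floor of 3 reads per library, and ratios with 1 to 3 reads carry a 95% counting interval. Both cover counting error only. The scripts were tested on simulated data.

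Same-numbered libraries deviated together in tail (r of deviations 0.208 to 0.642) and in the epidermal groups of back skin (0.165 to 0.595), all over 0.1. The main fits nevertheless held group means only, with no replicate term, so their p-values are unpaired there too. The replicate block was run as an alternative, and the calls it changed in these groups are given with the results. Back bulge gave -0.0378 to 0.365 with the back basal groups, with some pairs under 0.1. The oral groups, with 2 libraries each, gave -0.213 to 0.459. In comparisons with back bulge or oral groups the numbers were therefore not taken to pair libraries. No pair of libraries agreed within counting noise. Any of the 39 Hox genes could be named, and of each other list up to 4 members with the smallest p in a comparison, or any member where the list has 10 or fewer. The Hox members and the gene lists were chosen with earlier results of these data known. Promoter windows are from RefSeq. Single values of 1 Hox member, which stays in all fits and counts, and of 1 marker are not reported here.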

Additional observations from a re-analysis of the deposited data

Results flagged for a closer look

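Hoxc13 differed between the sites in its bulge-to-basal difference, by the interaction term in edgeR's quasi-likelihood test (tail minus back, log2 -6.60 ± 0.39, adjusted p = 7.6e-08). It was -0.85 in tail and 5.76 in back.

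Hoxd8 (-5.84 ± 0.72, adjusted p = 0.00011) and Hoxd9 (-6.42 ± 0.64, adjusted p = 4e-05, edgeR) differed in the same term. Both were higher in bulge at both sites, by 1.2 and 1.49 in tail, and back basal cells had 7 and 1 reads of them.

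Hoxc13 also differed between the sites in its LRC-to-nLRC difference (tail minus back, -2.90 ± 0.46, adjusted p = 0.0028, edgeR). It was -2.38 in tail and 0.52 in back. Site and table set cannot be told apart in any of these terms.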

How the results depend on the processing

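No call on a Hox gene turned direction under DESeq2, median-of-ratios scaling, limma, no filter, the replicate block or any left-out library. With only the groups compared, spinous LRC gave 3 higher and 1 lower. Hoxc13 in back against oral cells was -2.54 against tongue alone; the cause was not tested. Counts of called Hox genes moved by over 1.5 times as follows. With limma at either pseudocount, spinous LRC, spinous against basal cells and the LRC interaction gave 0. Granular against basal cells gave 8 with DESeq2, 3 with no filter, 10 with the replicate block, 3 with limma on log2(TPM + 0.1) and 9 with only the groups compared. The bulge interaction gave 6 with DESeq2, 6 with no filter and 5 with limma on log2(TPM + 1). In tail, bulge gave 6 with libraries 1 and 2 only, and LRC gave 1 there and 1 with limma on log2(TPM + 1). A minimum of 5 reads made 1 gene detected in palate LRC. Leaving out 1 library gave 11 to 14 calls in back bulge, 9 to 13 in tail bulge, 18 to 22 between the bulges, 28 to 29 between tail and back basal cells, 28 to 31 in tail and 20 to 23 in back against oral cells, 1 to 5 in spinous LRC, 2 to 4 in spinous and 4 to 9 in granular against basal cells, 1 to 2 in tail LRC, 3 to 7 in the bulge interaction, 1 in the LRC interaction and in tongue against palate, and 0 in back, palate and tongue LRC. Where the numbers did not pair libraries, the replicate block gave 22 calls in back against oral cells, 29 in tail against oral cells, 13 in back bulge and 4 in the bulge interaction. Beyond the calls named or counted beside the results, the block changed no other call where numbers paired libraries. Genes with few reads, such as Hoxc8 and Hoxc9 in tail, are limited by depth.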

Other observations

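In back skin, replicate 2 was the highest of the 3 libraries in 5 of 5 epidermal groups for Hoxa7, Hoxa9, Hoxb6, Hoxb7, Hoxb8, Hoxb9 and Hoxc8. The ratio of replicate 2 to the mean of the others was 2.04 to 2.97 for Hoxb9, 1.77 to 4.08 for Hoxa9, 1.36 to 2.66 for Hoxb7 and 1.05 to 1.2 for Hoxa7. For Hoxc4, replicate 1 was the highest in 5 of 5 groups. Hoxd1, known in the development of pain-sensing neurons, was too low to be tested, with 0.54, 0.18 and 1.51 TPM in tail bulge and 0 in the tail basal libraries.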
